A study of Homo sapiens with 6 samples.

Results

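The mitosis and G2/M genes are 49 named genes that cells use to enter mitosis, to build and watch over the spindle, to separate the chromosomes and to divide. They were listed by name with no threshold on their values, although earlier results of these data were known, and all 49 have a row in the deposited table of 27394 genes. All 49 passed the filter, a mean over the 6 libraries of at least 1, as did 22189 genes in all. PANC-1 is an established human pancreatic ductal cancer cell line. PANC-1 cells were grown in medium with 10% serum (RPMI-1640 in the sample labels, DMEM in the study's methods) and infected with vectors that carry a control shRNA (shControl, 3 replicates) or an shRNA against ZDHHC20 (shZDHHC20, 3 replicates), with no further agent in either group. ZDHHC20 is an enzyme that attaches palmitate to proteins, and its own transcript was at 2001, 2033 and 1940 in the control libraries and at 872, 779 and 893 in the silenced ones, so every silenced library fits its label. The time between infection and harvest, and which shRNA against ZDHHC20 was used for these libraries, are not given in the sources used here. The study describes its in vitro replicates in general as biological, but the labels do not say that these libraries came from separate cultures, so p-values measure the spread between these samples, which may be technical.

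Cells enter mitosis when CDK1, bound to a B-type cyclin, is activated by CDC25 phosphatases, in a loop that PLK1 and Aurora kinases strengthen. Kinetochore proteins then tie each chromosome to spindle microtubules, kinesin motors move and sort them, and the spindle checkpoint holds anaphase back until every chromosome is attached. The anaphase-promoting complex with CDC20 then marks cyclin B and securin for degradation, and the cell is cut apart by the cytokinesis machinery. Most of these genes are transcribed late in the cell cycle, through repressing DREAM and activating B-MYB and FOXM1 complexes that bind the CHR element in their promoters. In bulk libraries, fewer cells in G2 and mitosis and less RNA of these genes per cell cannot be told apart.

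The promoters are shown because they hold the sequence feature these genes are known to share, which the list did not use. RefSeq promoter windows (GRCh38.p14, 300 bases, of which 250 lie before the transcription start) were at hand for 41 of the 49 genes. A CHR element, searched as TTTGAA or TTCGAA on either strand, stood in at least 1 window of 32 of the 41, or 78.0%, against 15.5% of 13085 genes tested and 16.4% of all 35116 windows. A CCAAT box, searched as CCAAT on either strand, stood in 34 of the 41, or 82.9%, against 41.8% of the genes tested and 34.6% of all windows. Both stood in the same window for 26 genes, or 63.4%, against 6.52% of the genes tested. The stretches of 30 bases below surround the CHR match nearest the start in the 6 genes of smallest adjusted p that hold one, written in the direction of transcription, with the match in capitals.
PLK1 (chr16:23678842-23678871, plus strand): aacgttcccagcgccgcgTTTGAAttcggg
ANLN (chr7:36389824-36389853, plus strand): tcggcgctgaaattcaaaTTTGAAcggctg
CDC25C (chr5:138331823-138331852, minus strand): tactgggctggcggaaggTTTGAAtggtca
HMMR (chr5:163460592-163460621, plus strand): aatgtggggagatttgaaTTTGAAaccggt
MAD2L1 (chr4:120066813-120066842, minus strand): acgtgctgcgtcgttactTTTGAAacgctt
KIF15 (chr3:44761741-44761770, plus strand): tccgatccaagcgccaaaTTCAAAtttgcg
In PLK1, ANLN, CDC25C and HMMR the match begins 29, 20, 30 and 22 bases before the start, in KIF15 it is read from the other strand, and in MAD2L1 it lies just downstream of the start. A match is a description of letters and not a mapped site. After ZDHHC20 silencing PLK1, ANLN and CDC25C fell, and HMMR, MAD2L1 and KIF15 did not pass the test. PTTG1, which also fell, held no CHR match, and for FOXM1, which fell too, no window was at hand.

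After ZDHHC20 silencing most of the mitosis and G2/M genes stayed close to their control level. Of the 49 genes, 5 fell at an adjusted p under 0.05 and 0 rose. The 5 were PLK1, ANLN, CDC25C, PTTG1 and FOXM1, and their means fell by between 15.4% and 25.4%. This was 10.2% of the genes, beside 6.84% of all genes tested that fell and 4.61% that rose. At an unadjusted p under 0.05 there were 9 of the 49, beside 23.8% of all genes tested. In 14 genes, all lower, the groups were free of overlap (28.6% of the 49), beside 14.8% of all genes that were lower without overlap and 13.8% that were higher. The median log2 fold change was -0.07, beside 0.01 over all genes tested, and single genes ranged from -0.42 to 0.21, with 33 below 0 and 16 above. At an unadjusted p under 0.01 with a fold of at least 1.5, 0 of the 49 genes passed, beside 2.45% of all genes. The 95% interval of the fold change lay within 1.5-fold either way in 47 genes and within 1.25-fold in 38, and it held 0 in 40. For the 1.5-fold and 1.25-fold counts no share over all genes was taken, so nothing particular to the list is read from them. The values are called normalized counts here (gene counts divided by a factor per library), fold changes are on the log2(normalized count + 0.1) scale, and p-values come from limma's two-sided moderated test, adjusted over all genes tested by the Benjamini-Hochberg method.

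**Figure D1:**
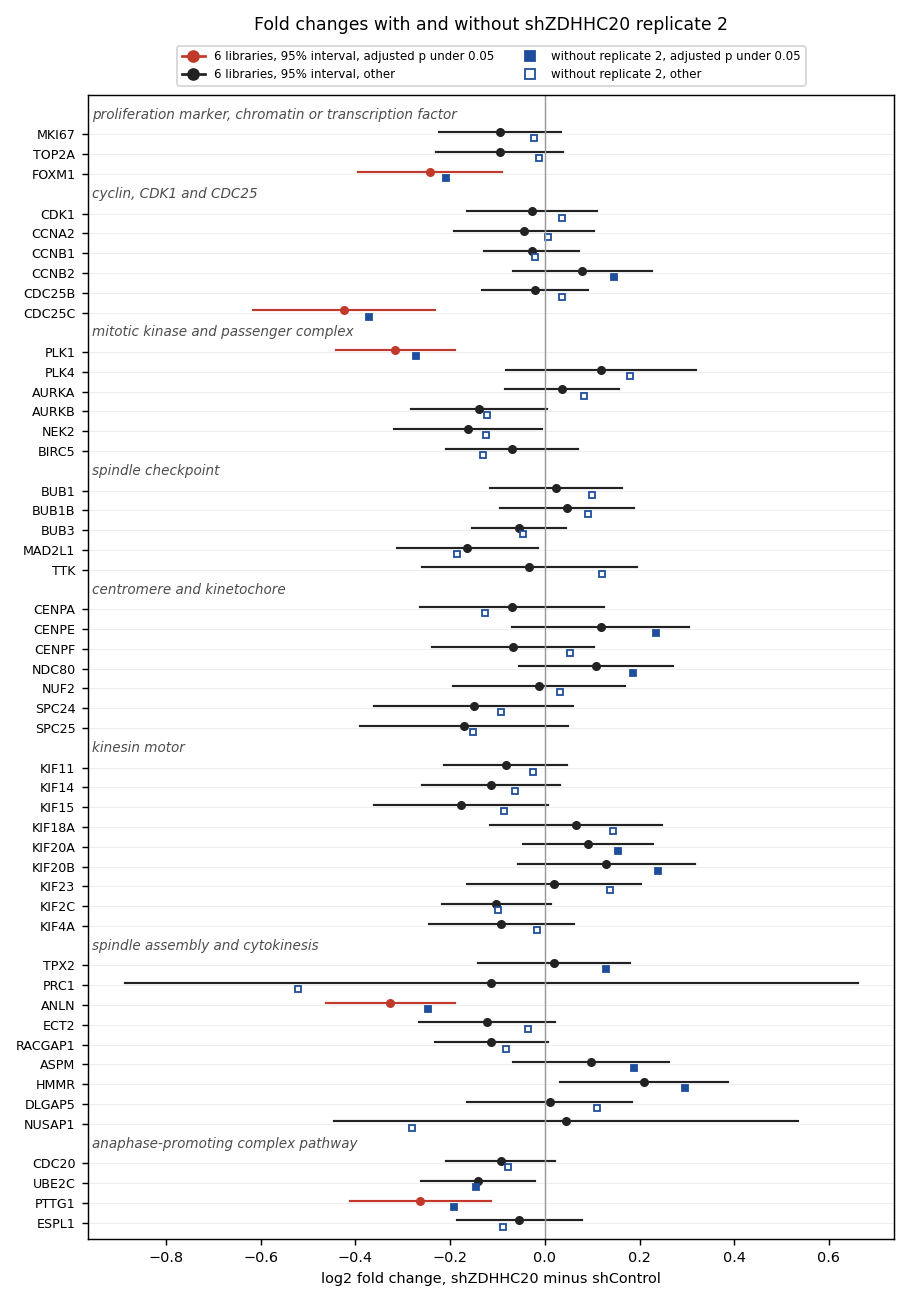
Log2 fold change of each of the 49 genes (shZDHHC20 minus shControl, x axis), grouped by role, with its 95% interval over the 6 libraries (circles, n = 3 per group) and its value without shZDHHC20 replicate 2 (squares). With 6 libraries 5 genes stand apart to the left. Without replicate 2, which leaves 2 shZDHHC20 libraries, a further 8 genes stand to the right with an adjusted p under 0.05.

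A single library stood apart for these genes. The 49 genes held 0.554%, 0.560% and 0.548% of the summed values in shControl replicates 1 to 3, 0.563% and 0.567% in shZDHHC20 replicates 1 and 3, and 0.513% in shZDHHC20 replicate 2. The median log2 difference of the 49 genes from the control mean was -0.05, -0.14 and -0.01 in shZDHHC20 replicates 1, 2 and 3, while over 10908 genes whose mean was at least 100 it was -0.01, -0.02 and -0.01. Replicate 2 was the lowest of all 6 libraries for 34 of the 49 genes, a count for which no share over all genes was taken. It was below both other shZDHHC20 libraries for 40 and above both for 6. Over the 10908 genes it was below both for 46.8%. Replicates 1 and 3 lay together above all controls in 17 genes and together below all controls in 18. The shares of all genes that did so were not taken, so nothing particular to the list is read from these counts.

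**Figure D2:**
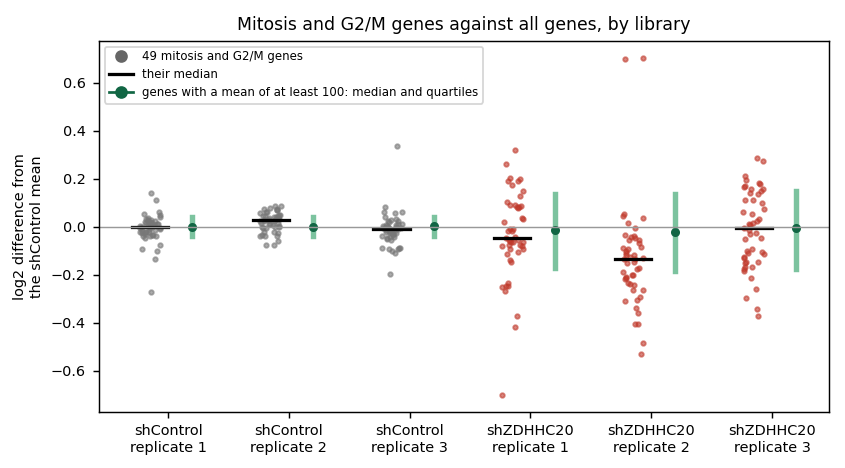
Log2 difference of each of the 49 genes from the shControl mean in each library (points), with the median of the 49 (black bars) and the median and quartiles of 10908 genes whose mean was at least 100 (green). The black bar lies at -0.14 in shZDHHC20 replicate 2 and between -0.05 and 0.03 in the other libraries.

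Leaving out shZDHHC20 replicate 2 left 6 genes lower and brought 8 genes higher among 22258 genes tested. The 6 lower genes are 12.2% of the 49, beside 11.1% of all genes, and the 8 higher are 16.3%, beside 8.93%. The 5 genes named above stayed lower, and UBE2C joined them. The 8 higher genes were HMMR, CENPE, KIF20B, TPX2, ASPM, KIF20A, NDC80 and CCNB2, with log2 fold changes from 0.13 for TPX2 to 0.30 for HMMR. The median over the 49 genes was then -0.02. The count of higher genes thus turned on this library, while the count of lower genes moved more, to 3, when shZDHHC20 replicate 1 or any single control was left out. All values without replicate 2, here and below, rest on 2 shZDHHC20 libraries against 3 controls. No fit left out replicate 2 and corrected for GC content together.

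How far replicate 2 lay from replicates 1 and 3 was related to base composition among these genes. The difference was most negative for TTK (-0.46 on the log2 scale), CENPF (-0.36), CENPE (-0.35) and KIF23 (-0.35), and its median was -0.17, beside -0.03 over the 10908 genes. Across the 49 genes its Pearson correlation with transcript GC content was 0.26 and its Spearman correlation 0.52, and 0.48 and 0.52 across 47 genes without PRC1 and NUSAP1. These describe genes measured in the same libraries, which are not independent, and across 10907 genes the values were 0.48 and 0.56. The 49 genes had a median transcript GC content of 42.5%, beside 48.3% for all genes whose mean was at least 100, so AT-rich transcripts were common on the list. With log10 transcript length the Spearman correlation was -0.41 across the 49 genes and -0.29 across all. When a smooth trend with GC content was removed from each library, 8 of the 49 genes were lower (16.3%, beside 8.54% of all genes), 0 were higher (beside 5.62%), and the median was -0.09. TOP2A, KIF15, ECT2 and RACGAP1 then joined PLK1, ANLN, CDC25C and PTTG1, and FOXM1 was lost (adjusted p = 0.0652). The part of base composition in the fold changes was not tested further.

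**Figure D3:**
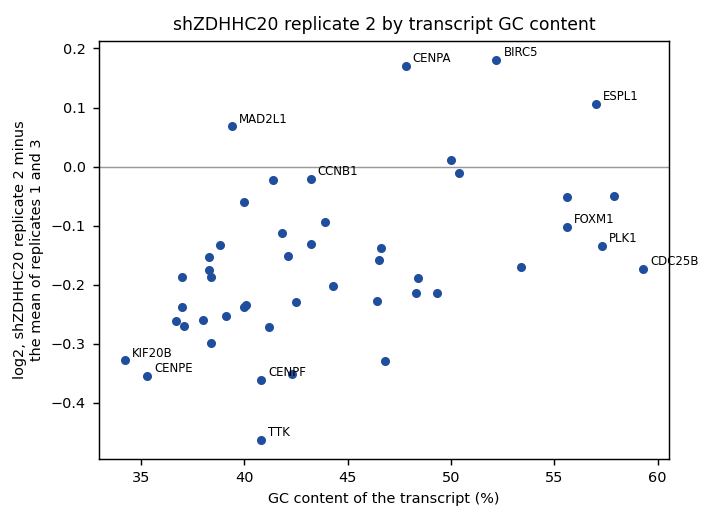
Log2 difference of shZDHHC20 replicate 2 from the mean of replicates 1 and 3 (y axis) against the GC content of the transcript in percent (x axis), for 47 of the 49 genes, with PRC1 and NUSAP1 (1.23 and 0.98) left off the scale. Genes of low GC content such as KIF20B and CENPE lie near the bottom and GC-rich genes such as ESPL1 and BIRC5 near the top. The trend is loose: CDC25B (59.3% GC) lies at -0.17 and MAD2L1 (39.4% GC) at 0.07.

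Among the proliferation marker, chromatin and transcription genes, FOXM1 fell and MKI67 and TOP2A did not pass the test. FOXM1 (ENSG00000111206, chromosome 12, 2857681 to 2877155, minus strand, GENCODE 29 on GRCh38) encodes the forkhead factor that activates many G2/M genes. Its normalized count was 792, 780 and 833 in the shControl libraries and 666, 646 and 723 in the shZDHHC20 libraries, with no overlap. The mean was 802 ± 27.6 in the controls and fell to 678 ± 39.8 (SD, n = 3), so that the log2 fold change came to -0.24 (standard error, SE, 0.0703, adjusted p = 0.0409). This call is close to the threshold and held in only 8 of 18 alternative analyses, with adjusted p from 0.0285 to 0.186 over them. MKI67, which encodes the Ki-67 antigen that coats mitotic chromosomes, was at 6451, 6827 and 6595 in the controls and at 6370, 5617 and 6668 after silencing. Its log2 fold change was -0.09 (SE 0.0595, adjusted p = 0.374) with 6 libraries and -0.02 without replicate 2. TOP2A, the topoisomerase that disentangles chromosomes, was at 7071, 7090 and 7148 in the controls and at 7061, 5917 and 7033 after silencing. The control libraries were so close that the groups did not overlap, although replicates 1 and 3 lay close to the controls, and the log2 fold change was -0.10 (SE 0.062, adjusted p = 0.391). For MKI67 and TOP2A the groups thus differed by less than replicate 2 differed from replicates 1 and 3.

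CDC25C was the gene of the list with the largest fall, while CDK1 and its cyclins did not pass the test. CDC25C (ENSG00000158402, chromosome 5, 138285265 to 138338355, minus strand) encodes a phosphatase that removes the inhibiting phosphates from CDK1. Its normalized count was 372, 365 and 358 in the shControl libraries and 282, 253 and 282 in the shZDHHC20 libraries. All 3 silenced libraries were below all controls, and the mean fell from 365 ± 6.72 to 272 ± 16.9 (SD, n = 3), or 74.6% of the control level. On the log2 scale the change was -0.42 (SE 0.0891, adjusted p = 0.0075) with 6 libraries and -0.37 (adjusted p = 0.0046) without replicate 2. CDC25B, a relative with a higher level per kilobase of transcript, had a log2 fold change of -0.02 (adjusted p = 0.861), with a 95% interval from -0.13 to 0.09. CDK1 was at 1699, 1620 and 1613 in the controls and at 1687, 1480 and 1682 after silencing, and the log2 fold change was -0.03 (SE 0.0635, adjusted p = 0.854). CCNB1, cyclin B1, was at 3625, 3655 and 3476 in the controls and at 3540, 3481 and 3524 after silencing, with overlapping groups and a log2 fold change of -0.03 (SE 0.0466, adjusted p = 0.774). For CDK1 and CCNB1 the sign turned when libraries were scaled to equal sums, so no direction is given for them. CCNA2, the cyclin of S and G2 phase, was at 1144, 1186 and 1063 against 1122, 1022 and 1148 (log2 fold change -0.04, SE 0.0682, adjusted p = 0.757). CCNB2 was at 1137, 1102 and 1145 in the controls and at 1232, 1086 and 1265 after silencing. It had a log2 fold change of 0.08 (SE 0.068, adjusted p = 0.532) with 6 libraries and rose by 0.15 (adjusted p = 0.0473) without replicate 2.

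PLK1 had the smallest adjusted p of the list. PLK1 (ENSG00000166851, chromosome 16, 23677656 to 23690367, plus strand) encodes the Polo-like kinase that acts from mitotic entry to cytokinesis. Its normalized count was 1738, 1738 and 1729 in the shControl libraries and 1462, 1310 and 1414 in the shZDHHC20 libraries. The lowest control lay well above the highest silenced library, and the mean fell from 1735 ± 5.0 to 1395 ± 77.5 (SD, n = 3). The log2 fold change was -0.32 (SE 0.0582, adjusted p = 0.00331) and -0.27 (adjusted p = 0.000364) without replicate 2. Its relative PLK4, which starts centriole duplication, had a log2 fold change of 0.12 (adjusted p = 0.49). NEK2, a kinase that separates centrosomes, was at 907, 797 and 818 in the controls and at 762, 713 and 779 after silencing (log2 fold change -0.16, SE 0.0725, adjusted p = 0.194). AURKB, the kinase of the chromosomal passenger complex, was at 780, 744 and 767 in the controls and at 725, 677 and 679 after silencing (log2 fold change -0.14, SE 0.0667, adjusted p = 0.227). The groups did not overlap for either kinase, but neither passed the test. AURKA, the Aurora kinase of the spindle poles, had a log2 fold change of 0.04 (adjusted p = 0.757), and BIRC5, which encodes the passenger subunit survivin, had -0.07 (adjusted p = 0.569). In this group only PLK1 passed the test, with and without replicate 2.

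**Figure D4:**
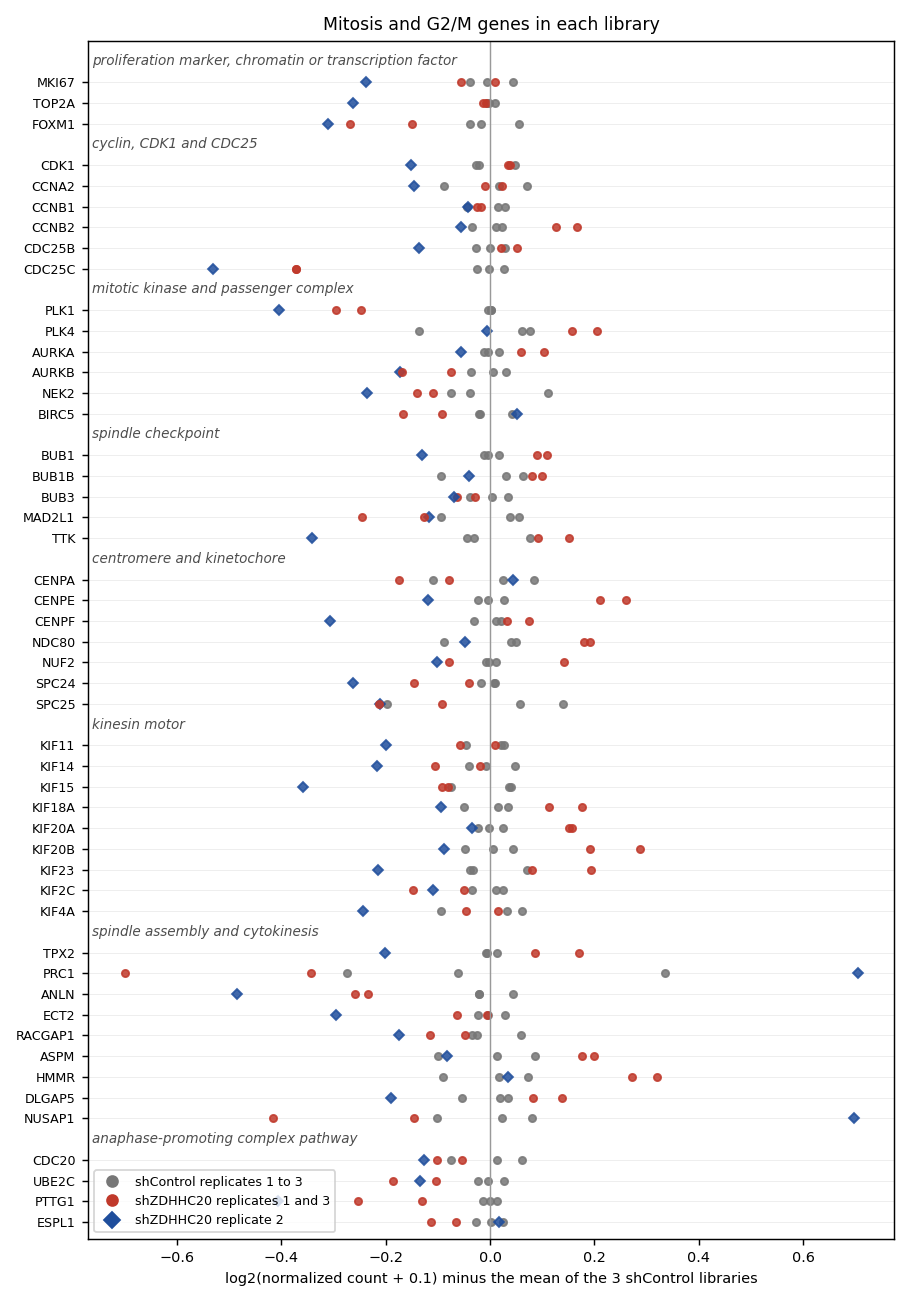
Log2(normalized count + 0.1) of each of the 49 genes in each library, minus the mean of the 3 shControl libraries (x axis), grouped by role, with shControl in grey, shZDHHC20 replicates 1 and 3 in red and shZDHHC20 replicate 2 as blue diamonds. The red points lie left of the grey for CDC25C, PLK1, ANLN and PTTG1 and right of it for HMMR, CENPE and KIF20B. The blue diamond is the lowest point in 34 genes, a count for which no share over all genes was taken.

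Of the 5 spindle checkpoint genes 0 passed limma's test with 6 libraries or without replicate 2, and 1 (MAD2L1) had an unadjusted p under 0.05. Over all genes tested these shares were 11.5%, 20.0% and 23.8%, so with 5 genes nothing is read from the counts. MAD2L1, which encodes the inhibitor of CDC20 at unattached kinetochores, was at 999, 988 and 901 in the controls and at 811, 887 and 882 after silencing. The groups did not overlap, and its log2 fold change was -0.16 (SE 0.0689, adjusted p = 0.165), or -0.19 (adjusted p = 0.0516) without replicate 2. BUB3, a kinetochore-bound subunit of the checkpoint, was at 4233, 4024 and 4145 against 3956, 3939 and 4051 (log2 fold change -0.05, SE 0.0459, adjusted p = 0.53). BUB1B, which encodes BUBR1, was at 1112, 1238 and 1211 against 1254, 1153 and 1271 (log2 fold change 0.05, SE 0.0659, adjusted p = 0.727). Exons of BUB1B also belong to the readthrough gene BUB1B-PAK6 on the same strand, so its level is uncertain. BUB1, the kinase that recruits the other checkpoint proteins, had a log2 fold change of 0.02 (adjusted p = 0.875). TTK, the checkpoint kinase MPS1, was the gene in which replicate 2 departed furthest below the other 2. TTK was at 967, 1042 and 958 in the controls and at 1054, 780 and 1097 after silencing, so replicates 1 and 3 were above all controls and replicate 2 below all of them. Its log2 fold change was -0.03 (adjusted p = 0.897) with 6 libraries and 0.12 (adjusted p = 0.16) without replicate 2.

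Of the 7 centromere and kinetochore genes 0 passed limma's test with 6 libraries, and 0 had an unadjusted p under 0.05. The shares over all genes tested were 11.5% and 23.8%, so with 7 genes nothing is read from these counts. SPC25, SPC24, NDC80 and NUF2 encode the NDC80 complex, the main grip of the kinetochore on microtubules. SPC25 was at 388, 367 and 307 in the controls and at 331, 304 and 304 after silencing (log2 fold change -0.17, SE 0.102, adjusted p = 0.341). SPC24 was at 272, 272 and 267 against 263, 225 and 244 (log2 fold change -0.15, SE 0.0974, adjusted p = 0.392). NDC80 was at 1074, 1081 and 982 against 1192, 1011 and 1184 (log2 fold change 0.11, SE 0.0754, adjusted p = 0.432). NUF2 was at -0.01 (adjusted p = 0.956). The 95% interval of each subunit held 0 with 6 libraries, so no split of directions within the complex is read. Without replicate 2 NDC80 rose by 0.19 (adjusted p = 0.0282), while SPC25 was at -0.15 (adjusted p = 0.37) and SPC24 at -0.09 (adjusted p = 0.557). CENPE, the kinesin of the kinetochore, was at 1103, 1119 and 1142 in the controls and at 1344, 1033 and 1297 after silencing. It had a log2 fold change of 0.12 (adjusted p = 0.457) with 6 libraries and rose by 0.24 (adjusted p = 0.00285) without replicate 2. CENPF, a large protein of the outer kinetochore, was at 5669, 5634 and 5469 against 5717, 4517 and 5887, and its log2 fold change turned from -0.07 to 0.05 without replicate 2. CENPA, the histone variant that marks centromeres, had a log2 fold change of -0.07 (adjusted p = 0.703), and its exons overlap those of SLC35F6 on the same strand.

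Of the 9 kinesin motor genes 0 passed limma's test with 6 libraries and 0 had an unadjusted p under 0.05. Beside these counts stand 11.5% and 23.8% of all genes tested, and with 9 genes nothing is read from them. The log2 fold changes of the motor genes lay between -0.18 and 0.13. KIF15, a motor that helps to hold spindle poles apart, was at 640, 691 and 693 in the controls and at 637, 526 and 632 after silencing (log2 fold change -0.18, SE 0.0853, adjusted p = 0.228). KIF2C, which encodes the microtubule depolymerase MCAK, was at 1866, 1943 and 1925 against 1726, 1772 and 1846 (log2 fold change -0.10, SE 0.0536, adjusted p = 0.272). KIF14, a motor of the midbody, was at 995, 1058 and 1018 against 1010, 881 and 951 (log2 fold change -0.11, SE 0.0677, adjusted p = 0.343). These 3 had the smallest p-values of the group, and for KIF15 and KIF2C the groups did not overlap. KIF15 passed the test with the GC correction (log2 fold change -0.22, adjusted p = 0.0474). KIF11, the target of Eg5 inhibitors, had a log2 fold change of -0.08, and the chromokinesin KIF4A had -0.09. Of the motors that act in late mitosis, KIF20A had 0.09, KIF20B 0.13 and KIF23 0.02, and KIF18A, which damps chromosome movements, had 0.07. Without replicate 2, KIF20B rose by 0.24 (adjusted p = 0.00596) and KIF20A by 0.15 (adjusted p = 0.0209), and KIF23 was at 0.14 (adjusted p = 0.0574).

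In the spindle assembly and cytokinesis group ANLN fell, and HMMR had the highest log2 fold change of the 49 genes. ANLN (ENSG00000011426, chromosome 7, 36389806 to 36453791, plus strand) encodes anillin, the scaffold of the cleavage furrow. Its normalized count was 4786, 5006 and 4785 in the shControl libraries and 4131, 3471 and 4058 in the shZDHHC20 libraries, with no overlap. The mean fell from 4859 ± 127 to 3887 ± 362 (SD, n = 3), or 80.0% of the control level. On the log2 scale the change was -0.33 (SE 0.063, adjusted p = 0.0045) and -0.25 (adjusted p = 7.53e-05) without replicate 2. HMMR (ENSG00000072571, chromosome 5, 163460203 to 163491945, plus strand) encodes a spindle protein that is also known as a hyaluronan receptor. Its normalized count was 813, 846 and 755 in the shControl libraries and 1004, 824 and 971 in the shZDHHC20 libraries, so replicate 2 alone lay among the controls. Its log2 fold change was 0.21 (SE 0.0819, adjusted p = 0.131) with 6 libraries and 0.30 (adjusted p = 0.00292) without replicate 2. RACGAP1 and ECT2 encode partners that activate RhoA at the furrow, the same site where anillin acts. RACGAP1 was at 2184, 2330 and 2197 in the controls and at 2065, 1980 and 2162 after silencing (log2 fold change -0.11, SE 0.0554, adjusted p = 0.238), and ECT2 had a log2 fold change of -0.12 (adjusted p = 0.297). ASPM, which focuses spindle poles, had 0.10, TPX2, the activator of Aurora A, 0.02, and DLGAP5, a spindle fibre protein, 0.01. Without replicate 2, ASPM rose by 0.19 (adjusted p = 0.0174) and TPX2 by 0.13 (adjusted p = 0.00589).

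PRC1 and NUSAP1, which encode bundlers of spindle microtubules, cannot be read from these values. PRC1 was at 24.3, 28.1 and 37.0 in the controls and at 18.0, 47.9 and 23.1 after silencing. NUSAP1 was at 104, 113 and 118 against 83.7, 181 and 101. The other 47 genes had control means from 270.4 to 9631. Exons of PRC1 and NUSAP1 overlap those of AC068831.7 and AC087721.2 on the same strand, which have no row in the table, so how shared reads were counted leaves both values uncertain. Replicate 2 was the highest library for PRC1 and NUSAP1, unlike most of the list, and the 95% interval of PRC1 ran from -0.89 to 0.66. In all, 19 of the 49 genes overlap exons of another gene, 15 of them only on the other strand. These include FOXM1 (ITFG2), CDC25C (FAM53C), PLK1 (ERN2) and ANLN (KIAA0895). The library kit keeps the strand, but whether the counting used it is not given in the sources used here, and without it such reads cannot be told apart.

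Among the 4 genes of the anaphase-promoting complex pathway, PTTG1 fell. PTTG1 (ENSG00000164611, chromosome 5, 160421822 to 160428744, plus strand) encodes securin, which holds separase inactive until anaphase. Its normalized count was 1566, 1580 and 1594 in the shControl libraries and 1326, 1193 and 1443 in the shZDHHC20 libraries. The groups did not overlap, and the mean fell from 1580 ± 13.9 to 1320 ± 125 (SD, n = 3). The log2 fold change was -0.26 (SE 0.0689, adjusted p = 0.0252) with 6 libraries and -0.19 (adjusted p = 0.0104) without replicate 2. This call held in 13 of 18 alternatives, and leaving out any control or shZDHHC20 replicate 1 ended it (adjusted p from 0.0925 to 0.114). UBE2C, the ubiquitin-conjugating enzyme that works with the complex, was at 1483, 1515 and 1463 in the controls and at 1383, 1354 and 1307 after silencing. UBE2C had a log2 fold change of -0.14 (SE 0.0555, adjusted p = 0.131), and it fell by 0.15 (adjusted p = 0.0411) without replicate 2. CDC20, the activator of the complex, was at 2630, 2473 and 2717 against 2510, 2386 and 2429 (log2 fold change -0.09, SE 0.0536, adjusted p = 0.323). ESPL1, which encodes separase itself, had a log2 fold change of -0.05 (adjusted p = 0.655). Securin thus fell, while for the protease it holds back the 95% interval ran from -0.19 to 0.08.

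The 5 calls differed in how firmly they stood. PLK1, CDC25C and ANLN passed the threshold in 17 of 18 alternative analyses, the exception being the fit without a mean-variance trend, in which 0 of the 49 genes and 351 of all genes passed. In that fit the adjusted p was 0.103 for PLK1, 0.0703 for CDC25C and 0.161 for ANLN. PTTG1 passed in 13 of the 18 and FOXM1 in 8. The other pseudocounts and filters, median-ratio scaling and robust moderation changed no call and no sign among the 49 genes. These alternatives lie close to the main fit, so the tallies do not count independent analyses. Per kilobase of transcript, the control level of these genes ran from 171.5 for CDC25C and 229.96 for FOXM1 through 779 for PLK1 and 1015 for ANLN to 1477 for PTTG1, within a range over the list from 7.29 for PRC1 to 2678 for CDC25B.

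Other genes of the same machinery, listed by function, were described by counts beside the 6.84% of all genes that fell and the 4.61% that rose. Counts without replicate 2 stand beside 11.1% of all genes lower and 8.93% higher. Counts at an unadjusted p under 0.05 stand beside 23.8% of all genes. Of 17 subunits and partners of the anaphase-promoting complex, 3 fell (UBE2S, ANAPC11 and CDC23) and 1 rose (ANAPC7), and without replicate 2, 4 were lower and 4 higher. UBE2S, which extends ubiquitin chains after UBE2C, fell by 0.29 (adjusted p = 0.0175), and the subunit ANAPC7 rose by 0.27 (adjusted p = 0.0157). Of 30 further centromere and kinetochore genes 0 fell and 2 rose in limma's test and 6 had an unadjusted p under 0.05, and without replicate 2, 1 was lower and 6 were higher. ZW10, which brings dynein to kinetochores and also acts in membrane traffic, was at 635, 630 and 619 in the controls and at 1007, 954 and 1030 after silencing. Its log2 fold change of 0.67 (SE 0.0647, adjusted p = 2.74e-05) was above that of all 49 mitosis and G2/M genes. SKA2, a partner of the NDC80 complex at microtubules, rose by 0.40 (adjusted p = 0.01). Of 22 cohesin and condensin genes 0 fell and 0 rose in limma's test and 1 had an unadjusted p under 0.05, and without replicate 2, 5 rose. Of 24 partners in the spindle and in cytokinesis 2 fell, ARHGAP11A (log2 fold change -0.40, adjusted p = 0.00031) and DEPDC1 (-0.40, adjusted p = 0.0012), with 0 that rose, and without replicate 2, 3 were lower and 1 higher.

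Among 22 regulators of mitotic entry, namely inhibitors, phosphatases and other genes such as CCNH and ENSA, 2 fell and 2 rose. Of the 22, 5 were lower and 3 higher without replicate 2. GADD45A, a stress-induced protein that holds back CDK1 and cyclin B1, was at 1814, 1833 and 1822 in the controls and at 983, 1088 and 959 after silencing. Its log2 fold change was -0.85 (SE 0.0621, adjusted p = 4.17e-06), a larger change than in any of the 49 mitosis and G2/M genes. CDKN1B, the CDK inhibitor p27, fell by 0.39 (adjusted p = 0.0018), and CCNH, the cyclin of the CDK-activating kinase, rose by 0.29 (adjusted p = 0.0271). ENSA, an inhibitor of the phosphatase PP2A in mitosis, rose by 0.25 (adjusted p = 0.00888). Of 20 DREAM, MuvB and B-MYB regulators, E2F5 (log2 fold change -0.45, adjusted p = 0.0144) and E2F3 (-0.25, adjusted p = 0.0179) fell and 0 rose, and without replicate 2, 2 were lower and 3 higher. Of 36 S-phase and replication genes 7 fell, or 19.4%, and 0 rose, with a median log2 fold change of -0.15, beside -0.07 over the 49 mitosis and G2/M genes. TYMS, thymidylate synthase, fell by 0.56 (adjusted p = 0.000658), and the replicative helicase subunits MCM2 and MCM3 fell by 0.34 (adjusted p = 0.00446) and 0.24 (adjusted p = 0.0111). Without replicate 2, 10 of the 36 S-phase genes were lower and 0 higher, while the mitosis and G2/M genes held 6 lower and 8 higher. Over all genes 11.1% were lower and 8.93% higher without that library. Whether the lists differ from each other was not tested.

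**Figure D5:**
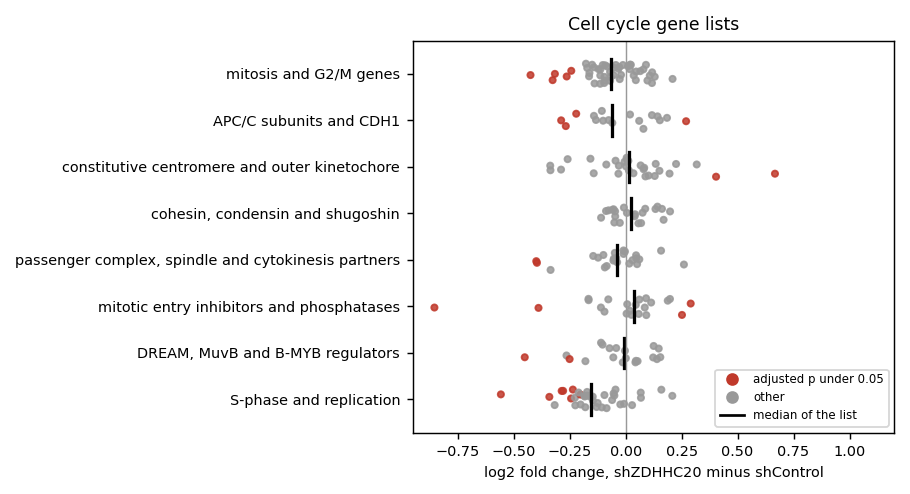
Log2 fold change (shZDHHC20 minus shControl, x axis) of the 49 mitosis and G2/M genes and of each further cell cycle list (y axis), with genes of an adjusted p under 0.05 in red, other genes in grey and the median of each list as a black bar. GADD45A at -0.85 and ZW10 at 0.67 lie outside the range of the 49 genes, and the S-phase list has its median at -0.15.

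ZDHHC20 had a mean of 848 ± 61.02 (SD, n = 3) after silencing against 1991 ± 46.9 (SD, n = 3), or 42.6% of the control (log2 fold change -1.23, SE 0.0649, adjusted p = 4.36e-07). MYC, the gene the study follows, had a log2 fold change of -0.59 (SE 0.0576, adjusted p = 2.79e-05). The summed values ran from 17083277 to 18007664 per library, with shZDHHC20 replicate 2 the lowest, which are totals of normalized values rather than read depths. Of the 8 ductal markers, the keratins KRT8, KRT18 and KRT19 had control means of 56187, 19660 and 5917, while KRT7 was at 86.5. EPCAM, CDH1 and MUC1 had low control means as well, at 72.4, 287 and 201, and rose by 2.89, 1.13 and 0.38 on the log2 scale. SOX9, with a control mean of 3929, fell by 0.33. Of 15 genes of other cell types, 8 had no row and 4 passed the filter, of which PTPRC, LUM and PRSS1 had means under 6 in either group and COL1A1, a gene of fibroblasts that was high in these cells, fell by 0.27 (adjusted p = 0.00288).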

How the data were processed

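RNA-seq was made from total RNA of PANC-1 cells with a strand-specific kit, 3 shControl and 3 shZDHHC20 libraries. The authors deposited 1 table of a normalized signal per gene and library, on build hg19 per the labels, without pooling replicates. Although named as FPKM, the values of a library are whole multiples of 1 step (0.939 to 1.06), as counts over a size factor are, with no division by length. The aligner, counter and annotation are not given in the sources used here. The test had been planned for FPKM values and was kept. Columns headed siZDHHC20 and NC were matched to the shZDHHC20 and shControl samples by group and replicate number. Reads were not recovered from these steps and read depth was not used, so no counting intervals are given.

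Gene names came from a reference table (27175 of 27394 identifiers) or else GENCODE 29 (GRCh38), the source of positions, transcript length, GC content and exon overlaps, a newer build than that of the files. Log2(value + 0.1) was fitted with limma 3.58.1 in R 4.3.3 (lmFit, eBayes with a mean-variance trend) over genes with a mean of at least 1, two-sided, with Benjamini-Hochberg adjustment. For the GC correction a spline of GC content (4 degrees of freedom, fitted where the mean was at least 10) was taken out of each library. Figures were drawn with Python 3.11.15 and matplotlib 3.10.9, and the scripts were tested on simulated data. Full values were given for up to 3 genes per role with the smallest adjusted p, for MKI67, TOP2A, CDK1, CCNB1, FOXM1 and PLK1, and for ZDHHC20. MYC was given without its library values, and up to 3 genes past the threshold were named for each further list. CDC23 and CCNH were named after their values were seen, to complete small counts. The members, roles, lists and tests were chosen with earlier results of these data known. Alternatives were other pseudocounts, filters and scalings, no trend, robust moderation, a replicate block, the GC correction and leaving out each library.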

Additional observations from a re-analysis of the deposited data

How the results depend on the processing

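The median log2 fold change of the 49 genes stayed below 0 in every alternative, from -0.09 to -0.02. The count of lower genes was 5, and 4 with quantile normalization or equal library sums. It was 0 without the mean-variance trend (351 of all genes, beside 2541), 8 with the GC correction and 3 at an adjusted p under 0.01, which were PLK1, CDC25C and ANLN. With each library left out in turn it ran from 3 to 6, the count of higher genes from 0 to 8 and the count over all genes from 1233 to 4454, the highest of the latter 2 being without shZDHHC20 replicate 2. At an unadjusted p under 0.01 with a fold of at least 1.5, 0 of the 49 genes passed in any alternative. The cause of these shifts was not tested. FOXM1 had an adjusted p of 0.0559 with quantile normalization, 0.0718 with equal sums and 0.178 without the trend, and PTTG1 0.214 without the trend.

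Among the 5 lower genes no sign turned, and among the 8 that were higher without shZDHHC20 replicate 2 that of TPX2 did. With quantile normalization CCNB1 had 0.0072, CDC25B 0.025 and NUF2 0.016. With equal library sums CDK1 had 0.016, CCNB1 0.014, CDC25B 0.022, TTK 0.0097 and NUF2 0.030. With the GC correction, alone or with the replicate block, CDC25B had 0.019, BUB1 -0.013, KIF23 -0.017, TPX2 -0.0050 and DLGAP5 -0.043. When single libraries were left out the values ran from -0.059 to 0.036 for CDK1, from -0.088 to 0.0067 for CCNA2, from -0.057 to 0.037 for CDC25B, from -0.020 to 0.10 for BUB1, from -0.12 to 0.12 for TTK, from -0.14 to 0.054 for CENPF, from -0.090 to 0.032 for NUF2, from -0.068 to 0.14 for KIF23, from -0.057 to 0.13 for TPX2, from -0.52 to 0.18 for PRC1, from -0.054 to 0.11 for DLGAP5 and from -0.28 to 0.28 for NUSAP1.

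The replicate numbers did not pair the samples: deviations of same-numbered libraries had correlations of -0.0948, -0.156 and -0.0771 over 10908 genes, and no library was closest to its own number. A fit with the replicate number as a block gave 4 lower genes (FOXM1 lost, adjusted p = 0.067), 0 higher genes, 1942 of all genes and the same median, and with the GC correction 6 lower genes and 2805 of all genes. The planned count models were not run, and the values were kept as a continuous signal.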
